A study of Mus musculus with 14 samples.

Results

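The regions described here are those that lie nearest to Klf4 or to 9 of its paralogs in the Krüppel-like factor (KLF) family: Klf3, Klf5, Klf6, Klf7, Klf9, Klf10, Klf11, Klf12 and Klf13. They come from chromatin immunoprecipitation and sequencing (ChIP-seq) of the homeodomain transcription factor NKX2.2 in the mouse cell line alphaTC6, which derives from alpha cells of the pancreas, the source of glucagon. All samples carried the genotype label WT, and the cells received either a Klf4 siRNA or a scrambled siRNA (siScramble) in a reverse transfection of 48 h. The authors compared 3 Klf4-KD with 4 scramble NKX2.2 ChIP samples, which the series describes as biological replicates; 7 input samples, 3 Klf4-KD and 4 scramble, complete the series and were not analysed here. Each region of the authors' deposited csaw table was assigned to the nearest protein-coding gene, at distance 0 where region and gene overlap, and 16 of 6758 regions fell to the 10 genes. Klf4 had 6 regions, Klf7 had 3, Klf10 had 2, and Klf3, Klf6, Klf9, Klf12 and Klf13 had 1 each. Klf5 and Klf11 had none. Only Klf4 was targeted. Transcripts were not measured in this series, so these data do not check the depth of the knockdown, which is transient and was made in whole cultures of a single line.

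KLF proteins are transcription factors that bind GC-rich and CACCC-type sequences through zinc fingers at the C-terminal end. The N-terminal parts differ and set the partners: KLF4, KLF5, KLF6 and KLF7 are known mostly as activators (KLF4 can also repress), KLF3 and KLF12 recruit the corepressor CtBP, and KLF9, KLF10, KLF11 and KLF13 recruit the corepressor SIN3A. KLF4 is best known as a reprogramming factor of pluripotency and as a regulator of epithelial differentiation. NKX2.2 is required for the specification of several endocrine cell types of the islet, and its homeodomain recognises sites built on an AAGTG core.

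Listed regions touched or adjoined the annotated start of several of these genes. RefSeq promoter entries (GRCm38.p6) existed for 8 of the 10 members, and Klf5 and Klf10 were not matched. A Klf10 region 40 bp from one end of that gene could therefore not be placed against a start. Among the 8, 2 genes had a listed region that reaches into the 250 bases before the start. That window is shown for both, with the bases inside the region in capitals. It is also shown for Klf4 as the siRNA target, with GGGCGGG on either strand in capitals. All are printed 5′ to 3′ on the strand of the gene.
Klf13, chr7:63938916-63939165, minus strand: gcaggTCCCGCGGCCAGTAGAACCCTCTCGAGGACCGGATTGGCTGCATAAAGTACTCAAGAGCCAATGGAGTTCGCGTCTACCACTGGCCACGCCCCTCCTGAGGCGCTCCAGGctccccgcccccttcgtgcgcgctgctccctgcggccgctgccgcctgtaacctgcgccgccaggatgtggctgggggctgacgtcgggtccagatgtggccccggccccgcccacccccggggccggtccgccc
Klf9, chr19:23140976-23141225, plus strand: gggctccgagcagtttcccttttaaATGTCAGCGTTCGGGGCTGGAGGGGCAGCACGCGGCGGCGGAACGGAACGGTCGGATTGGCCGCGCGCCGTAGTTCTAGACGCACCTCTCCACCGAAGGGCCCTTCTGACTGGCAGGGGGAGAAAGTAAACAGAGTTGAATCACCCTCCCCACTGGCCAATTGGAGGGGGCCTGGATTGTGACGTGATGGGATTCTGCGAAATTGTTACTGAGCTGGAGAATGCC
Klf4, chr4:55532476-55532725, minus strand: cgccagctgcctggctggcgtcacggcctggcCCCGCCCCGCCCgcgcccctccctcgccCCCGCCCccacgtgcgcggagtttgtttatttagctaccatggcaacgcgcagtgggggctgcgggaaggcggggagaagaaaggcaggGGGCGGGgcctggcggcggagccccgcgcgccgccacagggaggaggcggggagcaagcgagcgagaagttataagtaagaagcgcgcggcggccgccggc

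The whole Klf13 region, 110 bases, lies in the window shown, from 245 to 136 bases before the start. Of the Klf9 region, the 225 bases that precede the start are shown, and the region runs on to 934 bases after it. The Klf4 region lies upstream of its window, from 485 to 476 bases before the start. At Klf7 a region lies from 129 to 188 bases after a RefSeq start, inside the transcription unit. Motifs were searched on both strands of the 250-base windows of the 8 members with an entry. The Klf12 and Klf7 windows precede starts inside the bounds of these minus-strand genes. That of Klf12 ends at 100150046 and the gene at 100285891, and that of Klf7 ends at 64121639 and the gene at 64122345. The NKX2 core AAGTG was found once each in those of Klf3 and Klf12 and in none of the other 6, and it occurs in 40.7% of all 32851 RefSeq windows of this length. The base composition differs, with G or C at 74.0% of the Klf4 window, 71.6% of that of Klf13 and 59.6% of that of Klf9, against a median of 52.4% over all windows. Its longer form TNAAGTG, whose matches are by construction among these, occurs in 10.1% of all windows and in none of the 8 members'. The KLF box CACCC occurs once in the Klf9 window, from 84 to 80 bases before the start and inside the listed region, and once in the Klf13 window, from 22 to 18 bases before the start and outside it. The Klf3 window holds it 5 times, that of Klf7 3 times and that of Klf12 once, while those of Klf4, Klf6 and Klf11 hold none. It occurs in 52.0% of all windows. The motif GGGCGGG, one form of the GC-rich sites bound by KLF and SP proteins, occurs 4 times in the Klf4 window, where 2 of the matches overlap each other, and in 23.4% of all windows. The Klf13 window holds it at 2 places, both between the region and the start, the Klf3 window at 4 and the Klf11 window at 3. These matches describe the letters of the windows and not bound sites.

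**Figure D1:**
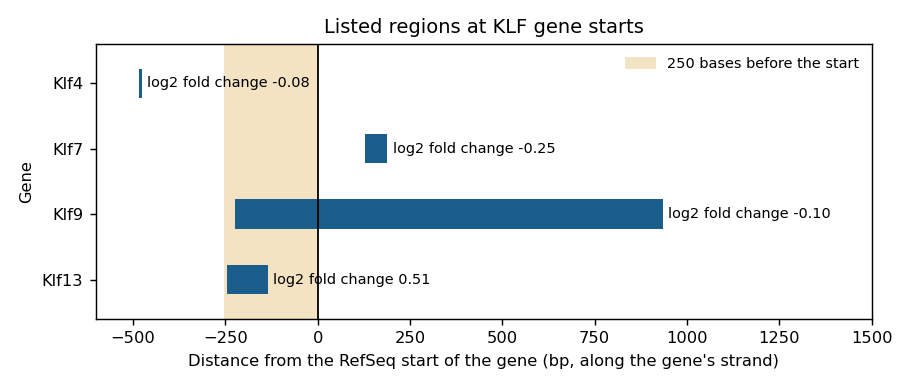
Listed regions at the starts of 4 KLF genes, drawn as bars along the gene's own strand in bp from the RefSeq start (0), with the deposited log2 fold change beside each. The shaded band marks the 250 bases before the start: it holds the Klf13 region entirely and the first part of the Klf9 region, while the Klf4 region lies upstream of it and the Klf7 region lies past the start.

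To ask whether occupancy at KLF genes differed between the knockdown and the scramble cultures, the 16 regions were read against the whole table. None of the 16 reached a false discovery rate (FDR) of 0.05 in the authors' csaw comparison, in which 1.36% of all regions did. At that rate 0.22 of 16 regions would pass, so a count of 0 is near the background. Without adjustment, 0 of the 16 had a p-value under 0.05, against 11.2% of all regions, a rate at which 1.80 of 16 would have one. The smallest p-value of the 16 in the authors' deposited table was 0.068, at an FDR of 0.51, for the region farthest from Klf4; 897 regions of the table had a smaller one. The median p-value was 0.73 for the 16 regions and 0.47 for all regions in the deposited table. For 10 of the 16 the deposited FDR stood at the table's largest value, which 40.0% of all regions share. No value per library accompanies these regions, so the spread between cultures enters only through the authors' p-values, and how small a difference would have been detectable cannot be stated.

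The sign of a fold change is given as the authors' deposited table lists it, since the table does not name the numerator; positive values are called up and negative ones down. By representative windows, 10 of the 16 regions were negative and 6 positive, and of all regions 43.2% were negative. By best windows the 16 split into 8 and 8. In the authors' deposited table the median log2 fold change was -0.053 for the 16 and 0.040 for all regions by representative windows, and 0.069 and 0.15 by best windows, so the sign of the median for the 16 turned with the choice. By representative windows the 16 ran from -0.43 to 0.70. Of these values, 15 lay between the 5th and 95th percentiles of the whole table, -0.60 and 0.68, and only the farthest Klf4 region lay outside. The 16 regions combine 62 csaw windows, of which 0 were counted as up or down by the authors. Over all regions on assembled chromosomes, 1239 of 25748 windows were counted as up and 1318 as down. These counts rest on the same windows as the p-values of the regions, so the 0 is not a further result. By known function and representative windows, the mostly activating members (Klf4, Klf5, Klf6, Klf7) had 10 regions, 6 of them negative. The CtBP-recruiting pair (Klf3, Klf12) had 2 regions, one of each sign, and the SIN3A-recruiting members (Klf9, Klf10, Klf11, Klf13) had 4, of which 3 were negative. Each of these groups held regions of both signs, none of which reached an FDR of 0.05, and no difference by function was tested. By best windows the Klf9 region, the nearer Klf10 region and the Klf4 region at 171 kb turned positive. The deepest Klf7 region turned negative.

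**Figure D2:**
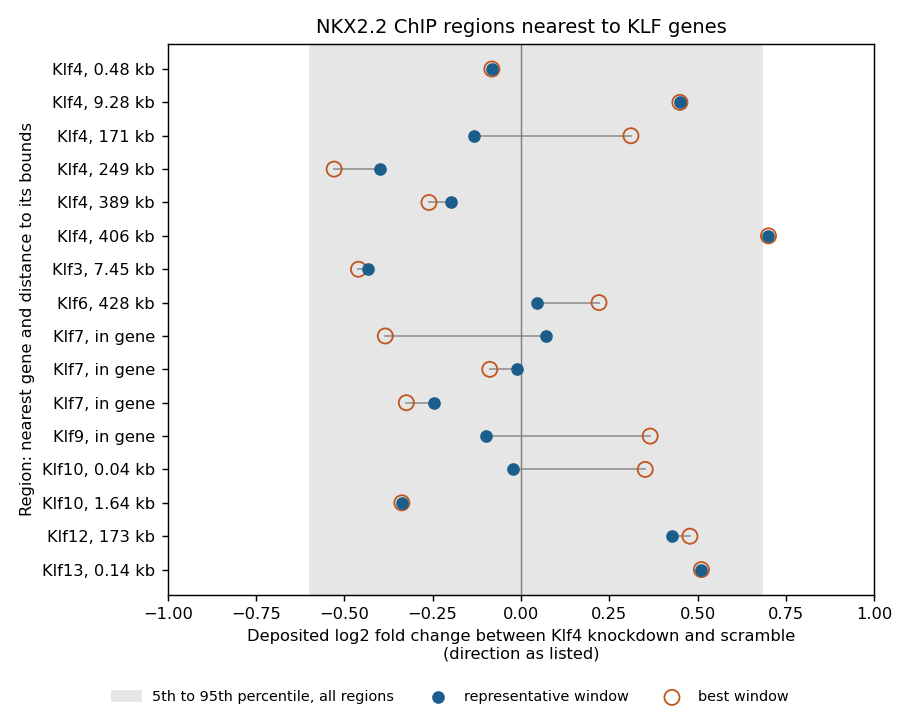
Deposited log2 fold change (x axis, direction as listed) of the 16 regions nearest to KLF genes, labelled by gene and distance to its bounds. Filled points are the representative window, open circles the best window, and the grey band spans the 5th to 95th percentiles of all 6758 regions, which holds 15 of the 16 filled points.

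**Figure D3:**
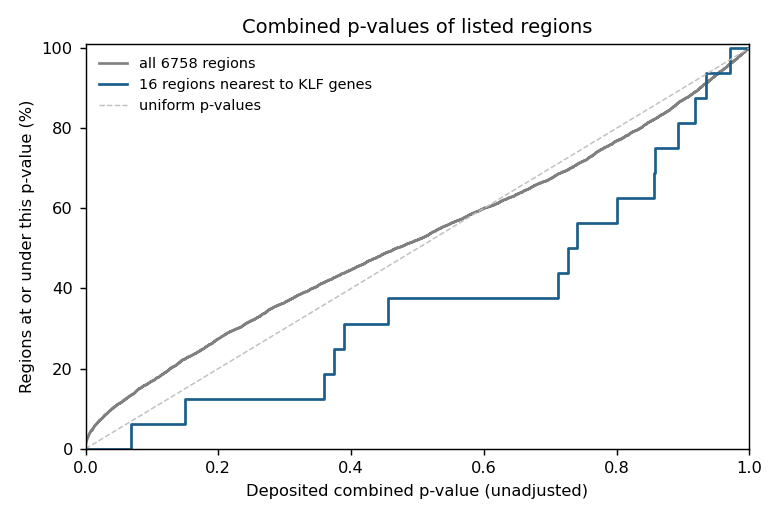
Cumulative share of regions (y axis, %) at or under a given deposited combined p-value (x axis), for all 6758 regions and for the 16 nearest to KLF genes; the dashed line is the course of uniform p-values. The first of the 16 regions appears at 0.068, and the median is 0.73 for the 16 against 0.47 for all.

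Klf4, on chromosome 4 from 55527137 to 55532475 (minus strand, gene ID 16600), carried no region within its bounds. All 6 of its regions lay at higher coordinates, which is upstream of the gene. In that direction the next protein-coding gene, Actl7b, is 1208 kb away, and 7 regions were listed in the interval, 6 nearest to Klf4 and 1 nearest to Actl7b. In the other direction Rad23b lies 135 kb away, and 0 regions were listed between the genes. Only 63 of the 4542 genes with any region, or 1.39%, had at least as many regions as Klf4, and the median such gene had 1. The count of 6 depends on the assignment: 2 of the regions lie within 10 kb of Klf4, and with the nearest gene of any type all 6 go to the noncoding genes Gm12506 or Gm34482, which leaves 0. The stretch of DNA for which Klf4 is the nearest protein-coding gene spans 677 kb, so its density of 8.87 regions per Mb compares with 2.82 per Mb over chromosome 4. Such a density is not particular to Klf4. Among the other members with a region it ran from 0.87 per Mb at Klf12 to 14.8 at Klf10, with 8.41 at Klf9 and 7.01 at Klf7.

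The region closest to Klf4 is a single 10 bp window on chromosome 4 from 55532951 to 55532960, 476 bp upstream of the start. In the authors' deposited table its log2 fold change was -0.08, with a p-value of 0.80. It also falls within the bounds of the long noncoding RNA gene Gm12506, which extends away from Klf4 on the upstream side. A RefSeq start of another gene lies 241 bp from this region, closer than the start of Klf4. A second region, from 55541751 to 55541810, lies 9.28 kb upstream and was listed at 0.45 in the authors' deposited table (p = 0.36, FDR 0.87). These neighbours thus carried values of opposite sign, neither of which passed the test.

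The other 4 Klf4 regions lie between 171 and 406 kb upstream, in the interval without protein-coding genes. The first of them, from 55703501 to 55703710, held 5 windows and was listed at -0.13 in the authors' deposited table (p = 0.86). Next came the region from 55781301 to 55781560, 248.8 kb upstream, held 6 windows and had the lowest value of the 6, -0.40 in the authors' deposited table (p = 0.45, FDR 0.93). The remaining pair lies 17.4 kb apart and had opposite signs. Its nearer member, from 55921101 to 55921210, was listed at -0.20 (p = 0.73) in the authors' deposited table. Its farther member, from 55938501 to 55938560 and 406 kb upstream, was listed at 0.70 in the same authors' deposited table, a ratio of 1.63, at an FDR of 0.51. Over the whole table, 302 regions had a log2 fold change at least as high, and 23 of them, 7.62%, reached an FDR of 0.05. Beyond the last Klf4 region, the single one nearest to Actl7b was listed at 0.65 in the authors' deposited table, with an FDR of 0.66. Across the interval, therefore, values of both signs occurred and the smallest FDR was 0.51.

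**Figure D4:**
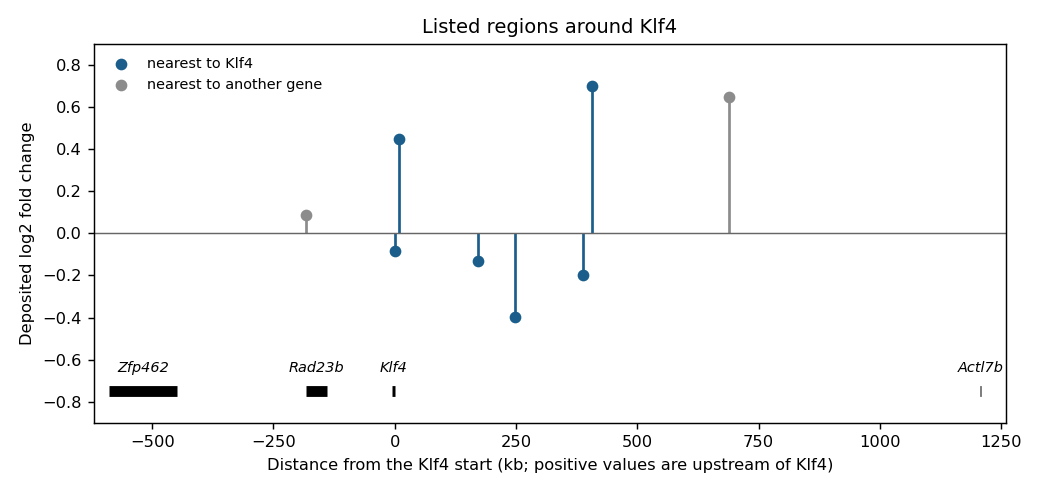
Listed regions around Klf4: deposited log2 fold change (y axis) against distance from the Klf4 start in kb (x axis, positive upstream), with the bounds of Zfp462, Rad23b, Klf4 and Actl7b as black bars. The 6 regions nearest to Klf4 all lie upstream, 2 within 10 kb and 4 from 171 to 406 kb, and take both signs.

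Klf7, an activator known from neuronal differentiation, spans chromosome 1 from 64029448 to 64122345 on the minus strand, and all 3 of its regions lie within these bounds. The region nearest the start, from 64121201 to 64121260, was listed at -0.25 in the authors' deposited table (p = 0.39, FDR 0.89), the farthest from 0 of the 3 by representative windows. Deeper in the gene, 32.8 kb after the start, the region from 64088401 to 64088560 was listed at -0.012 in the authors' deposited table, with a p-value of 0.97, the largest of the 16. It also overlaps the noncoding gene Gm13748. The third, from 64066951 to 64067160 and 54.2 kb after the start, was listed at 0.071 in the authors' deposited table (p = 0.74) with mixed direction, meaning that windows of both signs contributed. None of the 3 regions inside Klf7 passed the test.

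Klf6, a widely expressed activator, is the only protein-coding gene in a long interval of chromosome 13 and had 1 region, 428 kb before its start, from 5433601 to 5433810. The authors' deposited table listed it at 0.044 (p = 0.86). Klf5, a close paralog of Klf4 known from proliferating epithelia, had none: the nearest listed region on chromosome 14 lay 1146 kb away, past its neighbour Klf12. Chromosome 14 carried few regions in all, 85 or 0.68 per Mb, against 2.47 per Mb over all assembled chromosomes.

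Of the CtBP-recruiting pair, Klf3 had a region 7.45 kb beyond the far end of the gene, on chromosome 5 from 64840351 to 64840410. In the authors' deposited table it was listed at -0.43, the lowest representative-window value of the 16, at p = 0.15 and FDR 0.67. Among the 764 regions at or below that value in the table, 36 reached an FDR of 0.05. Klf12, which spans 419.7 kb of chromosome 14, had no region in its body and 1 at 173 kb from its bounds, from 100459001 to 100459410. That region held 9 windows, the most of the 16, and was listed at 0.43 in the authors' deposited table with a p-value of 0.71. The values of this pair lay on opposite sides of 0, and neither passed the test.

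Among the SIN3A-recruiting members, Klf13 had the highest value, in the promoter region printed in capitals above (chr7:63939051-63939160). It was listed at 0.51 in the authors' deposited table, a ratio of 1.42, at p = 0.37 and FDR 0.88. Its representative window, the 10 bp from 63939051, is the one nearest the start of the gene. Of 849 regions in the table at or above that value, 35 reached an FDR of 0.05.

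Klf9, a gene known to respond to glucocorticoids and thyroid hormone, had the widest region of the 16, on chromosome 19 from 23141001 to 23142160. It covers the gene start and 1160 bp in all, wider than 99.1% of the table's regions by rank. Only 6 windows were listed in it where an unbroken row on the 50 bp grid would hold 24, so the region consists of separated windows; such spacing occurred in 6.24% of all regions and in no other of the 16. The authors' deposited table listed it at -0.10 (p = 0.92) with mixed direction. Regions wider than 1 kb numbered 103 in the table, 96 of them on assembled chromosomes, with widths up to 22510 bp in the whole table. Of the 103, 18 reached an FDR of 0.05, and the one at Klf9 was among the others.

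Klf10, first described as a gene induced by TGF-beta, spans chromosome 15 from 38291464 to 38300711 and had 2 regions beyond its higher-coordinate end. The nearer one, from 38300751 to 38300910, is 40 bp from that end and was listed at -0.024 in the authors' deposited table (p = 0.93), again with mixed direction. The other, 1.64 kb away from 38302351 to 38302460, was listed at -0.34 in the authors' deposited table (p = 0.89). Both also fall within the bounds of the noncoding gene Gm35248. Klf11, known as a regulator of the insulin gene and the closest relative of Klf10, had none; it sits among close neighbours on chromosome 12, and the nearest listed region, 44.1 kb away, belongs to Rrm2.

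The best window of a region, the one with the smallest p-value, was listed beside the representative one. Its sign was opposite in 4 of the 16 regions, against 13.0% of all regions. These 4 are the Klf9 region, the nearer Klf10 region, the deepest Klf7 region and the Klf4 region at 171 kb. They are the same 4 that were listed as mixed, a label that 19.4% of all regions carry. In the authors' deposited table the best-window p-values of the 4 were all 0.945 or higher. At Klf9 the authors' deposited table gave -0.10 for the representative and 0.37 for the best window. At Klf10 it gave -0.024 and 0.35 in the authors' deposited table. For these regions a single direction is therefore not defined by the table, and the smallest best-window FDR of the 16 was 0.56.

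Some properties of the 16 regions are set here beside the rest of the table. Overlap with a gene and distance to it come from the same nearest-gene assignment that chose the regions. They are therefore not independent of that choice. The bounds of a protein-coding gene overlapped 4 of the 16 (the 3 at Klf7, which lie inside the gene, and the one across the Klf9 start), against 56.1% of all regions on assembled chromosomes, and 6 of 16 (37.5%) lay over 100 kb from their gene against 8.85%. Of those 6, Klf4 accounts for 4 and Klf6 and Klf12 for 1 each, genes bordered by long intervals without protein-coding genes. Within 1 kb of a RefSeq start there were 4 of the 16, and 26.5% of all; Klf10, which has no entry among these starts, could not be counted. The 4 such regions had a median log2 fold change of -0.091 and the 1783 of the table -0.037, from the authors' deposited values. Median width was 135 bp for the 16 and 110 bp for all. The DNA nearest to the 10 genes sums to 4.34 Mb and carried 3.69 regions per Mb. These shares describe 16 regions of 8 genes and were not tested.

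The rest of the KLF family and the related SP family were counted as a list. Of these 16 genes, 5 had a nearest region (Klf2, Klf14, Klf16, Sp1 and Sp4), 7 regions in all, and 11 had none. None of the 7 reached an FDR of 0.05, where the rate of the whole table, 1.36%, would give 0.095. Without adjustment, 1 had a p-value under 0.05, where the table's rate of 11.2% would give 0.79. It was singled out after its values were seen: a region 183 kb from Klf14 at 0.56 in the authors' deposited table (p = 0.038, FDR 0.39). Sp1, which binds the same GC-rich sites, had a region on chromosome 15 from 102405501 to 102406110, ending 206 bp before its start. The authors' deposited table listed it at -0.30 with an FDR of 0.87. At Klf16 a 10 bp region 555 bp from the gene was listed at -0.14 in the authors' deposited table (p = 0.66). Klf2, a regulator of endothelial and T cell quiescence, had a region 7.85 kb before its start at 0.29 in the authors' deposited table (FDR 0.84).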

How the data were processed

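The table used is the authors' csaw comparison of 3 Klf4-KD with 4 scramble NKX2.2 ChIP samples, per the series' design text. Per the submitters' processing notes, Bowtie2, MACS2 and FastQC were used and the build was mm10; versions, window filter, normalization, covariates and any use of input are not given in the sources used here. The p-values and FDR were deposited by the authors per region. For each region the authors deposited a log2 fold change of a representative and of a best window. No counts per library were used, so depth and replicate error are unknown, and the planned count tests were not run.

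Regions (1-based coordinates) went to whichever of 21900 protein-coding genes was nearest in RefSeq GRCm38.p6, ties going to the closer gene end. The density of a chromosome is its regions over the end of its last gene. The deposited FDR was checked to equal a Benjamini-Hochberg adjustment over all 6758 regions. Assignment and adjustment were tested on simulated data. The assignment test placed short regions close below the lower-coordinate ends of isolated genes only. It did not cover overlaps, ties, the higher-coordinate side or far regions. Python 3.11.15, numpy 2.4.6, pandas 2.3.3 and matplotlib 3.10.9 were used.

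All 10 members were named, with every region within 10 kb and, in this case, every farther one. Other KLF and SP genes were named with values where a region lay within 10 kb; the exception is Klf14, named after its values were seen. Alternatives covered the FDR threshold, the best window, distance limits, single-window regions, gene types and gene starts. The members, lists and grouping by function were chosen with earlier results of these data known. No test was made over the members.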

Additional observations from a re-analysis of the deposited data

How the results depend on the processing

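The count of 0 regions at an FDR of 0.05 was also 0 under the 6 alternatives run: FDR limits of 0.1 and 0.01, the best-window p-value, regions within 10 kb, single-window regions left out (smallest FDR 0.50), and the nearest gene of any type. With so few regions this says little about stability. The FDR limit of 0.01, the 10 kb limit and the nearest gene of any type could only give 0. The first is stricter than 0.05, and the others keep part of the same 16 regions at unchanged FDR. The number of regions, 16, fell to 10 within 10 kb, 8 within 3 kb and 5 with the nearest gene of any type. The last fall arose because 11 overlap or lie nearer to a noncoding gene, among them all 6 of Klf4. Nearest gene starts gave 14, of which 13 were among the 16. This setting could not keep the 2 regions of Klf10, which has no entry among the starts. The median of -0.053 (log2) was 0.069 with best windows, -0.024 without single-window regions and -0.018 without Klf4, and within 10 kb it stayed at -0.053. Best windows reversed 4 regions: Klf4 at 171 kb (0.31), the deepest in Klf7 (-0.38), Klf9 (0.37) and the nearer one at Klf10 (0.35). The causes were not tested. No paired analysis was possible because csaw output has no replicate numbers. Leaving out replicates, a filter on low counts, other size factors and DESeq2 were not run, since they need counts per library.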

Other observations

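The letters CCAAT, a common promoter element, were searched after the printed sequences had been seen. They occur in the 250-base windows of 4 of the 8 members with an entry: 4 times at Klf6, 3 at Klf9, 2 at Klf13 and 2 at Klf11, on either strand. In all RefSeq windows of this length 33.8% hold at least 1. At Klf13 both matches, from 212 to 208 and from 187 to 183 bases before the start, lie inside the listed region. At Klf9 all 3 do, from 170 to 166, 69 to 65 and 66 to 62 bases before the start, the last 2 overlapping. Klf6 and Klf11 have no listed region at their start. The matches are a description of the sequence only.

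Regions that reached an FDR of 0.05 were sparse in the whole table, at 1.36%, and the distances from them to these genes are given as values only. Chromosomes 14 and 19, which carry Klf5, Klf12 and Klf9, held 0 of them, where that rate would give 1.16 and 2.37. The nearest to Klf4 was 52.4 Mb away and the nearest to Klf7 14.6 Mb. Klf11 was closest, at 0.27 Mb: that region has Mboat2 as its nearest gene and was listed at 1.24 in the authors' deposited table, with an FDR of 0.042.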
